A study of Mus musculus with 4 samples.

Results

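Genes of mitosis and of the G2 to M transition were followed in peritoneal macrophages of mice treated with AGEs or with BSA. They were chosen as a fixed list of gene symbols, from cyclins and mitotic kinases to condensin and cytokinesis proteins. The list was chosen with earlier results of these data known. All 40 had a row among the 15575 genes of the count table. With AGEs, 7 of them were downregulated past the threshold used for these data, over 1.5-fold with an unadjusted p under 0.05, and 0 were upregulated. Over the 14181 genes tested, 0.945% were downregulated and 0.825% upregulated past it. After adjustment by edgeR, 0 genes, in the list or outside it, had an adjusted p under 0.05. The 7 were Pbk, Ube2c, Hmmr, Birc5, Kif23, Mki67 and Ccna2.

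The experiment had 4 libraries of total RNA in 2 groups. The AGEs group (2 libraries) came from mice given BSA modified with dehydroascorbic acid (DHA-BSA), a preparation of advanced glycation end products, and the BSA group (2 libraries) from mice given unmodified BSA. All mice were C57BL/6, described in the methods as males of 8 to 12 weeks, and all received intraperitoneal thioglycollate (TG), an irritant that recruits monocytes and macrophages into the peritoneal cavity. Injections of 10 mg/kg/day into a vein began 24 h ahead of TG and went on until the cells were taken 72 h after it, so the comparison is between 2 proteins on the same TG background, and cells without TG were not analysed here. The macrophages are the peritoneal cells that stayed attached to a dish after a short culture and a wash, and the number of mice behind each library is not stated.

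A cell enters mitosis when cyclin B bound to the kinase CDK1 becomes active, after cyclin A has worked with CDK2 and CDK1 through S and G2 phase. Chromosomes are then condensed by condensin and topoisomerase II, captured by spindle microtubules under the watch of the spindle checkpoint, and separated once the anaphase-promoting complex (APC/C) has marked cyclin B and securin for destruction. The mRNAs of these proteins are low in resting cells and peak together in G2 and M phase, because their promoters are held silent by the DREAM complex and switched on by B-MYB and FOXM1 with the MuvB core. Most macrophages that enter an inflamed cavity derive from blood monocytes, but resident and recruited macrophages can also divide in place. In bulk RNA, fewer dividing cells and less mitotic mRNA per dividing cell cannot be told apart.

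The promoters of these genes are shown because the elements known to couple such genes to the cell cycle lie in them. The MuvB core binds the cell cycle genes homology region (CHR), searched here as TTTGAA or TTTAAA, and NF-Y binds the CCAAT box. Each was counted on both strands, overlapping matches included, in the RefSeq window from 250 bases before to 50 bases after the start of each gene (build GRCm38.p6). A window was given for 34 of the 40 genes. Pbk, Ccna2, Kif20a, Smc4, Tpx2 and Aurkb had none. Of the 7 downregulated genes, 5 had a window and 4 of these held both elements, which are printed from 250 bases before to 30 bases after the start, with the matches in capitals. On these strands TTCAAA is TTTGAA and ATTGG is CCAAT read from the other strand.
Mki67, minus strand, chr7:135716350-135716629: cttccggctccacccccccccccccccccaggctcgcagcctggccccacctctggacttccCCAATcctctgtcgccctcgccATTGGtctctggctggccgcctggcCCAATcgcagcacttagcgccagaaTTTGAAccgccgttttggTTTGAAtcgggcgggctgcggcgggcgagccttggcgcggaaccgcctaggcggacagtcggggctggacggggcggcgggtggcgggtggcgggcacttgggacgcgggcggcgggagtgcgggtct
Ube2c, plus strand, chr2:164769679-164769958: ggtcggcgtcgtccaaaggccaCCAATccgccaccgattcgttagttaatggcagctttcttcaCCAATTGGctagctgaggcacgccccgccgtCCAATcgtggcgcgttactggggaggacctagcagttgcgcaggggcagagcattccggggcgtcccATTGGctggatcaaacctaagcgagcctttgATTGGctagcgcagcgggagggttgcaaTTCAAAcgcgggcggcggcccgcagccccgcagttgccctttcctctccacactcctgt
Hmmr, minus strand, chr11:40733408-40733687: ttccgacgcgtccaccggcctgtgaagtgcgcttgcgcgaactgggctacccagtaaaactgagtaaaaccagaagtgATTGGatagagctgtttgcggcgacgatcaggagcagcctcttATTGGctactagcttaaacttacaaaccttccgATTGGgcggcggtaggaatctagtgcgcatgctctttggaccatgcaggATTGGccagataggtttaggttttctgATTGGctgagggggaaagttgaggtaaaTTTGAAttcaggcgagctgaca
Kif23, minus strand, chr9:61946770-61947049: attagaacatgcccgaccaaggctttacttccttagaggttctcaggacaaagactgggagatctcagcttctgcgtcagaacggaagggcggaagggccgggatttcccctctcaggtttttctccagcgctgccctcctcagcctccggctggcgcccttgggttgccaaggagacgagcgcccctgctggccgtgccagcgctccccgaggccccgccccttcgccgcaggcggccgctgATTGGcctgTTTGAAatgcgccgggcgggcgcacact

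Mki67 carried 3 CCAAT boxes followed by 2 CHR matches, Ube2c 6 boxes and 1 CHR, Hmmr 5 boxes and 1 CHR, and Kif23 1 box and 1 CHR. The fifth window, of Birc5, held 1 TTTAAA and no CCAAT. Among the 34 windows, 27 (79.4%) held TTTGAA, against 12.9% of the 10417 windows of all genes tested, and 7 (20.6%) held TTTAAA, against 9.36%. A CCAAT box was in 28 (82.4%), against 39.0%, and at least 2 boxes were in 18 (52.9%), against 15.3%. Both elements were in 27 (79.4%), against 8.36%. In 26 of these 27 the first CCAAT box lay upstream of the last CHR match, which was so in 51.8% of all windows that held both. This order is easier to meet with more matches in a window. The 34 windows held 63 boxes and 44 CHR matches, against 6524 and 2590 in the 10417 windows. The CHR matches clustered at the start of the gene, with a median position of base -16 over 44 matches, against -143 over all windows. Ncaph, Nusap1 and Mad2l1 held neither element, and Bub1 held 2 CCAAT boxes without a CHR. Both elements were in 4 of 5 windows of downregulated genes (80.0%) and in 23 of 29 windows of the other genes (79.3%). A match is a string of letters, not a measured binding site.

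**Figure D1:**
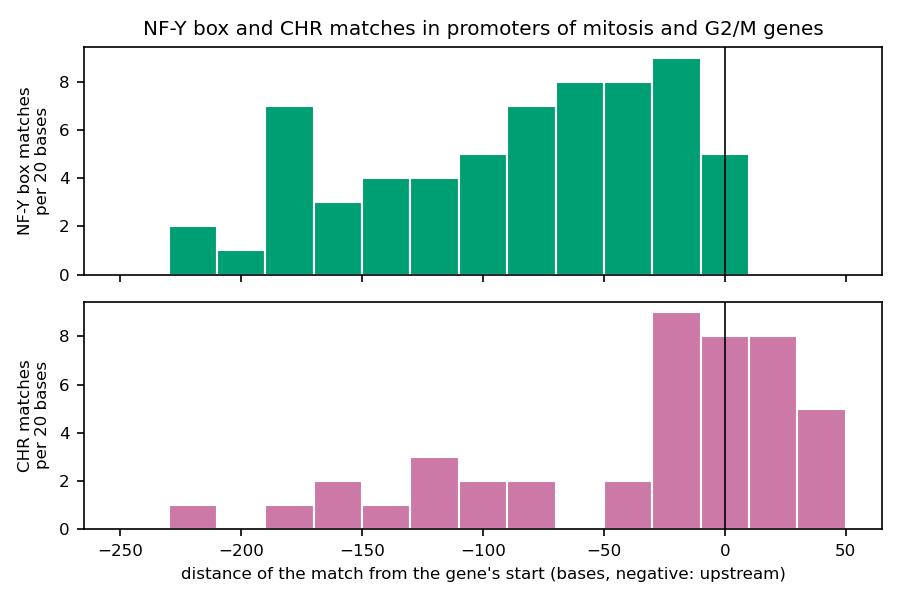
Positions of CCAAT boxes (NF-Y box, top) and CHR matches (bottom) in the promoter windows of 34 mitosis and G2/M genes, as the number of matches per 20 bases (y axis) against the distance from the start of the gene in bases (x axis, negative upstream). The 63 CCAAT boxes spread upstream with a median position of base -74, and 35 of the 44 CHR matches lie downstream of base -100.

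Read counts were scaled to TMM-normalized CPM, which express a count relative to the library total, and compared with edgeR's quasi-likelihood test. Library totals were 23079245 and 24472926 counts in the AGEs group and 17773088 and 22146761 in the BSA group. All 40 genes passed the filter on low counts, 38 of them over its limit of 0.442 CPM in every library, while Pbk was over it in the BSA libraries alone and Ube2c in 3 libraries, not in the first AGEs library. The 7 of 40 genes downregulated past the threshold stand beside 0.945% of the 14181 genes tested, and the 0 of 40 upregulated beside 0.825%. As the list was chosen with earlier results of these data known, these shares describe it and do not test it. After Benjamini-Hochberg adjustment over all genes tested, 0 of the 40 genes and 0% of all genes had an adjusted p under 0.05 by edgeR. The smallest adjusted p was 0.604 among the 40 genes and 0.318 among all genes. At an unadjusted p under 0.05 stood 8 of the 40 genes and 800 genes in all (5.64%), and DESeq2 gave 5 genes in all, none of the 40, at an adjusted p under 0.05. With 2 libraries against 2, exact permutation of 1 gene cannot go below a two-sided p of 0.333, so smaller p-values draw on the variance that edgeR moderates across genes.

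Most of the other genes lay on the same side with small differences. The log2 fold change (AGEs over BSA) was negative for 31 of the 40 genes, against 50.6% of all genes tested, and the median was -0.30, against -0.0026 for all genes. Both AGEs libraries lay below both BSA libraries for 14 of the 40 genes, against 17.7% of all genes, and above both for 2 (Cenpa and Prc1), against 17.7%. The highest of the 4 libraries was the first AGEs library for 4 genes, the second AGEs library for 4, the first BSA library for 15 and the second BSA library for 17. The summed level of the 40 genes was 298.8 and 305.7 CPM in the AGEs libraries and 335.9 and 354.5 CPM in the BSA libraries. As the sum of the authors' TPM, which corrects for gene length, it was 119.6 and 125.3 in the AGEs libraries and 156.7 and 134.6 in the BSA libraries. The groups did not overlap on either scale. In some other lists too, the first BSA library was high in TPM. The G1/S and DNA replication genes compared below summed to 517.1 TPM in it, against 442.0 and 439.2 in the AGEs libraries and 429.5 in the second BSA library. In CPM their sums were 804.1, against 809.6, 795.5 and 788.5 in the same order. The part of this in the TPM sums of the 40 genes was not tested.

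**Figure D2:**
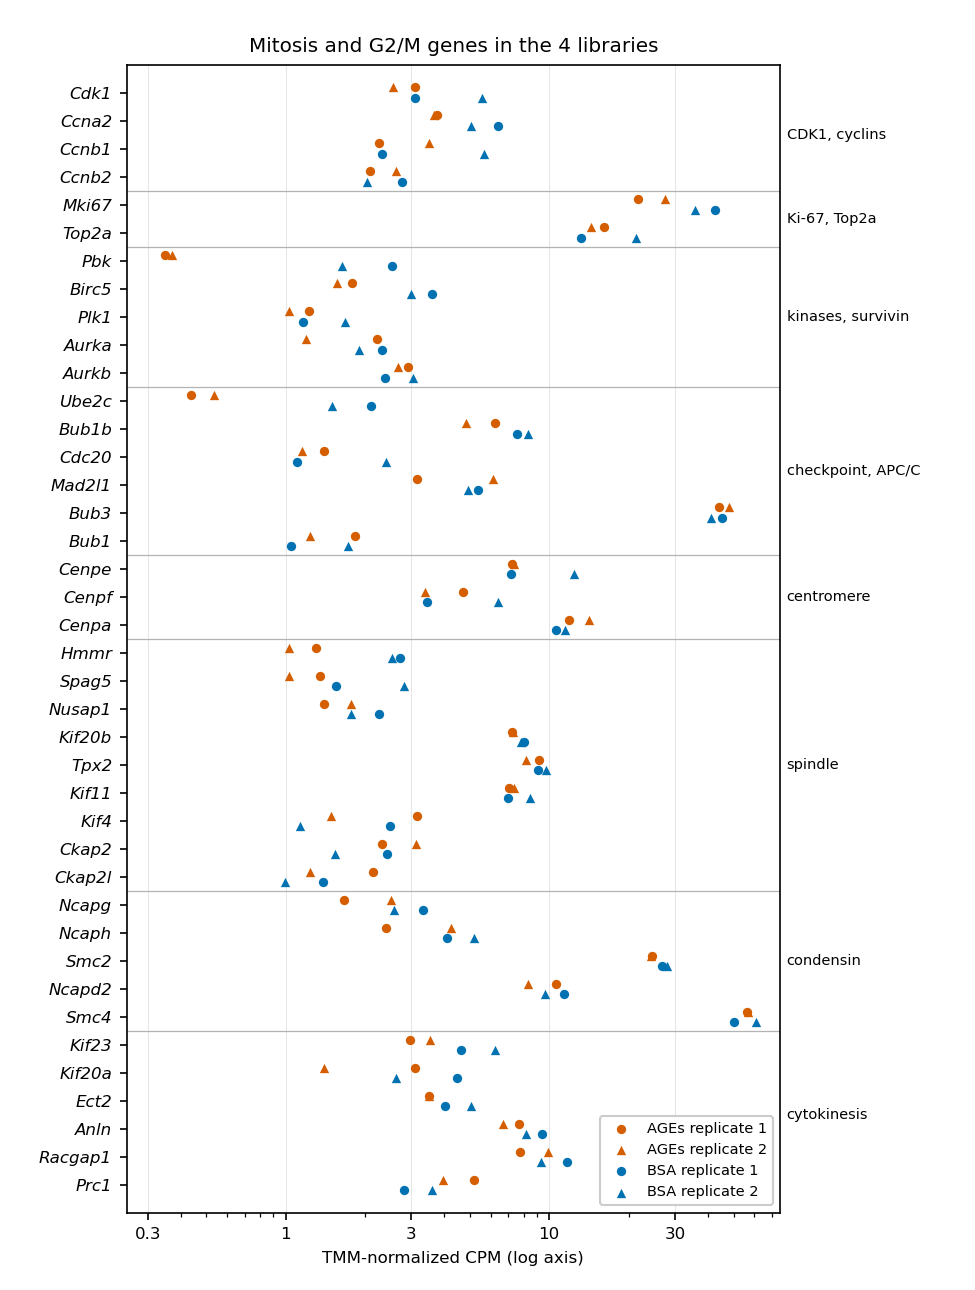
TMM-normalized CPM (x axis, log scale) of the 40 genes in each of the 4 libraries, grouped by role and ordered within a role by log2 fold change. Orange points are AGEs libraries and blue points BSA libraries (circle, replicate 1, triangle, replicate 2). Pbk, Ube2c, Hmmr, Birc5, Kif23, Mki67 and Ccna2 have both orange points left of both blue points, while Cdk1, Ccnb1, Cdc20, Cenpe and Top2a have the second BSA library as their highest point.

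The markers of the labelled cell were present. The 8 macrophage markers summed to 14730 and 15590 CPM in the AGEs libraries and 17720 and 14050 CPM in the BSA libraries, with 0 of 8 past the threshold. Among markers of other cells, the sums of the dendritic and of the mast cell and basophil lists separated the groups. Of 10 dendritic cell markers 7 were listed (not Clec9a, Siglech or Xcr1), and 5 of these were downregulated (Flt3, Ccr7, Cd209a, Kmo and Ccl22). Their sum was 11.5 and 15.9 CPM in the AGEs libraries and 26.1 and 22.3 CPM in the BSA libraries. Of 12 mast cell and basophil markers 8 were listed and 2 were upregulated (Hdc and Gata2), with sums of 12.6 and 13 CPM in the AGEs libraries and 5.36 and 11.5 CPM in the BSA libraries. Of 11 mesothelial and fibroblast markers 9 were tested and 1 (Krt8) was downregulated, with sums of 156.1 and 79.3 CPM in the AGEs libraries and 88.3 and 107.0 CPM in the BSA libraries. The 8 B cell markers summed to 163.1 and 205.5 CPM in the AGEs libraries and 143.8 and 163.4 CPM in the BSA libraries, and the 5 listed erythroid genes to 2.45 and 220.6 CPM in the AGEs libraries and 8.79 and 18.1 CPM in the BSA libraries, none of them past the threshold. Of the monocyte, resident large peritoneal macrophage, T and NK cell, neutrophil and eosinophil markers, 0 passed. Over all genes tested, 0.945% were downregulated and 0.825% upregulated. On the first principal component of all genes (38.7% of the variance) the AGEs libraries lay at 5.08 and 16.9 and the second BSA library at 12.5, while the first BSA library stood apart at -34.6. The part of these cells and of this library in the mitotic values was not tested, beyond leaving each library out.

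Cyclins and their kinase came first in the order of roles, and 1 of 4 was downregulated. Ccna2, cyclin A2, which drives S and G2 phase (Entrez gene 12428, chromosome 3, 36564865 to 36573038 in GRCm38.p6), had 86 and 89 counts in the AGEs libraries and 116 and 111 counts in the BSA libraries. This is 3.76 and 3.66 CPM in the AGEs libraries, against 6.41 and 5.03 CPM in the BSA libraries. The AGEs libraries lay close together and below both BSA libraries, with a log2 fold change of -0.62 (SE 0.28, edgeR adjusted p = 0.879). The call was the least steady of the 7, as it was kept in 6 of 18 alternative settings and lost with DESeq2 and with limma-voom.

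The B-type cyclins, which act in mitosis itself, did not pass the threshold. Ccnb1, cyclin B1, had 52 and 85 counts (2.27 and 3.50 CPM) in the AGEs libraries and 42 and 125 counts (2.32 and 5.67 CPM) in the BSA libraries. Its groups overlapped, since the first BSA library was as low as the first AGEs library, and the log2 fold change was -0.48 (SE 0.42, edgeR adjusted p = 0.928). Ccnb2, cyclin B2, had 48 and 64 counts (2.1 and 2.64 CPM) in the AGEs libraries and 50 and 45 counts (2.76 and 2.04 CPM) in the BSA libraries, with a log2 fold change of -0.02 (SE 0.38, edgeR adjusted p = 0.997). Cdk1, the kinase that cyclin B activates, had 71 and 62 counts (3.10 and 2.55 CPM) in the AGEs libraries and 56 and 123 counts (3.10 and 5.57 CPM) in the BSA libraries. The first BSA library matched the first AGEs library and the second BSA library alone was high (log2 fold change -0.62, SE 0.36, edgeR adjusted p = 0.902). Without that library the log2 fold change was -0.13 for Cdk1 and 0.32 for Ccnb1, and without the first BSA library both passed the threshold, at -0.98 and -0.97.

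Mki67 was the best counted of the downregulated genes. It encodes Ki-67, the protein that coats mitotic chromosomes and marks dividing cells in histology (Entrez gene 17345, chromosome 7 from 135689784 to 135716450). The paper stained Ki-67 protein in peritoneal macrophages of mice treated alike and sampled 72 h after TG. It reported no significant difference between AGEs and BSA in the share of positive cells or in intensity. That staining was read on macrophages gated by flow cytometry. The values here are of mRNA from all cells that stayed attached, with 2 libraries per group. Mki67 had 498 and 669 counts in the AGEs libraries and 771 and 790 counts in the BSA libraries. At 21.7 and 27.5 CPM in the AGEs libraries and 42.6 and 35.8 CPM in the BSA libraries, the groups did not overlap, and the mean was 24.6 ± 4.10 CPM in the AGEs group and 39.2 ± 4.81 CPM in the BSA group (SD, n = 2 each). The log2 fold change was -0.67 (SE 0.14, edgeR adjusted p = 0.604), and 0.0705% of all genes tested had a smaller p. It stayed between -0.85 and -0.51 with a library left out, and without AGEs replicate 1 (-0.51) or BSA replicate 1 (-0.54) it no longer passed. Top2a, topoisomerase II alpha, which untangles sister chromatids and is the other common marker of dividing cells, had 368 and 351 counts (16.1 and 14.5 CPM) in the AGEs libraries and 239 and 469 counts (13.2 and 21.3 CPM) in the BSA libraries. The AGEs libraries lay between the 2 BSA libraries. Its log2 fold change was -0.18 (SE 0.21, edgeR adjusted p = 0.938), and 0.21 without the second BSA library.

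Of 5 mitotic kinases and survivin, 2 were downregulated. Pbk, a mitotic kinase also known as TOPK (Entrez gene 52033, chromosome 14 from 65805911 to 65817822), had the lowest log2 fold change of the 40 genes, on few counts. It had 8 and 9 counts in the AGEs libraries and 46 and 36 counts in the BSA libraries. That is 0.349 and 0.371 CPM in the AGEs libraries against 2.54 and 1.63 CPM in the BSA libraries, a log2 fold change of -2.51 (SE 0.54, edgeR adjusted p = 0.604). Of all genes tested, 0.0494% had a smaller p. Pbk passed the low-count filter through the BSA libraries alone, so this rank is not separate support for a lower level. Birc5, survivin, a subunit of the chromosomal passenger complex that holds Aurora B at centromeres (Entrez gene 11799, chromosome 11 from 117849237 to 117855743), had 41 and 38 counts in the AGEs libraries and 65 and 66 counts in the BSA libraries. Its levels were 1.79 and 1.56 CPM in the AGEs libraries and 3.59 and 2.99 CPM in the BSA libraries, and the log2 fold change was -0.97 (SE 0.37, edgeR adjusted p = 0.848). Birc5 lost its call without either AGEs library (-1.07 without the first, -0.87 without the second) and without BSA replicate 1 (-0.84). Aurkb, the Aurora kinase of the same complex, stood at 2.93 and 2.68 CPM in the AGEs libraries and 2.38 and 3.04 CPM in the BSA libraries. Its groups overlapped, and the log2 fold change was 0.04 (SE 0.35). Plk1, which drives centrosome maturation and mitotic entry, had a value of -0.34 (SE 0.48), and Aurka, the Aurora kinase of the spindle poles, had -0.30 (SE 0.44).

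Of 6 genes of the spindle checkpoint and the APC/C, 1 was downregulated. Ube2c, the E2 enzyme that starts ubiquitin chains for the APC/C (Entrez gene 68612, chromosome 2 from 164769929 to 164772902), had 10 and 13 counts in the AGEs libraries and 38 and 33 counts in the BSA libraries. It reached 0.437 and 0.535 CPM in the AGEs libraries against 2.1 and 1.5 CPM in the BSA libraries, a log2 fold change of -1.87 (SE 0.52, edgeR adjusted p = 0.785). With any 1 library left out, the log2 fold change stayed between -2.09 and -1.61 for Ube2c and between -2.8 and -2.17 for Pbk. Both genes rest on 8 to 13 counts in the AGEs libraries. Only in the BSA group were both libraries over the limit of the low-count filter. The filter thus kept both genes through the group where they were high, so these ranges are not separate support for a lower level. A filter of at least 50 counts in 2 libraries left both untested. Cdc20, the activator that brings substrates to the APC/C, had 1.40 and 1.15 CPM in the AGEs libraries and 1.11 and 2.40 CPM in the BSA libraries, again with only the second BSA library high. Bub1b, the checkpoint kinase BUBR1, was at 6.20 and 4.82 CPM in the AGEs libraries and 7.57 and 8.34 CPM in the BSA libraries. Its unadjusted p was under 0.05, but the log2 fold change of -0.53 (SE 0.24, edgeR adjusted p = 0.879) was short of 1.5-fold. Mad2l1, the checkpoint protein MAD2 that inhibits Cdc20, was at -0.15 (SE 0.33). Bub3, which also works outside mitosis, had 43.9 and 48.1 CPM in the AGEs libraries and 45.2 and 40.9 CPM in the BSA libraries (0.10, SE 0.11), and Bub1, the kinase that recruits checkpoint proteins to kinetochores, had a log2 fold change of 0.13 (SE 0.48).

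At the centromere, 0 of 3 genes passed the threshold. Cenpe, the kinetochore motor, had 7.21 and 7.37 CPM in the AGEs libraries and 7.18 and 12.4 CPM in the BSA libraries (log2 fold change -0.43, SE 0.26), and Cenpf, a large kinetochore protein, had 4.72 and 3.38 CPM in the AGEs libraries and 3.43 and 6.39 CPM in the BSA libraries (-0.29, SE 0.34). In both, the second BSA library was the highest of the 4. Cenpa, the histone H3 variant that marks the centromere, ran the other way, with 11.9 and 14.2 CPM in the AGEs libraries and 10.6 and 11.5 CPM in the BSA libraries. Its groups did not overlap, and the log2 fold change was 0.24 (SE 0.19).

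Spindle motors and microtubule proteins spanned both signs, with 1 of 9 downregulated. Hmmr, a spindle pole protein first described as a hyaluronan receptor (Entrez gene 15366, chromosome 11 from 40701388 to 40733464), had 30 and 25 counts in the AGEs libraries and 49 and 56 counts in the BSA libraries. It stood at 1.31 and 1.03 CPM in the AGEs libraries against 2.71 and 2.54 CPM in the BSA libraries (log2 fold change -1.16, SE 0.42, edgeR adjusted p = 0.848), and lost its call without the second AGEs library (-1.0). Spag5, the spindle protein astrin, had 1.35 and 1.03 CPM in the AGEs libraries and 1.55 and 2.81 CPM in the BSA libraries. Its groups did not overlap, but the 2 BSA libraries were far apart (-0.88, SE 0.47, edgeR adjusted p = 0.898). The motors Kif11 (-0.10), which pushes the spindle poles apart, and Kif20b (-0.13), which acts in late mitosis, differed little, as did the spindle assembly factor Tpx2 (-0.12), each with an SE of 0.21 to 0.23. Nusap1, a microtubule bundler, had a log2 fold change of -0.34 (SE 0.42). The chromokinesin Kif4 (0.36, SE 0.49) and the microtubule proteins Ckap2 (0.46, SE 0.40) and Ckap2l (0.51, SE 0.49) had positive values with errors of similar size.

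Condensin folds chromosomes for segregation, and 0 of its 5 subunits passed the threshold. The shared ATPases were among the best counted genes. Smc4 had 56.2 and 56.9 CPM in the AGEs libraries and 50.4 and 60.7 CPM in the BSA libraries (log2 fold change 0.02, SE 0.11), and Smc2 had 24.5 and 24.3 CPM in the AGEs libraries and 26.9 and 28.0 CPM in the BSA libraries (-0.17, SE 0.13). The groups of Smc2 did not overlap, by a small margin. The condensin I subunits Ncapg (-0.49, SE 0.38), Ncaph (-0.48, SE 0.34) and Ncapd2 (-0.15, SE 0.21) were lower on average in the AGEs libraries, none beyond the threshold. SMC2 and SMC4 also serve condensin II, which is in the nucleus throughout the cell cycle.

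Among 6 genes of the central spindle and cytokinesis, 1 was downregulated. Kif23, the motor of the centralspindlin complex that organizes the midzone (Entrez gene 71819, chromosome 9 from 61917277 to 61946810), had 68 and 86 counts in the AGEs libraries and 84 and 137 counts in the BSA libraries. Its levels were 2.97 and 3.54 CPM in the AGEs libraries and 4.64 and 6.21 CPM in the BSA libraries, with a log2 fold change of -0.74 (SE 0.30, edgeR adjusted p = 0.861). The call was lost without the first AGEs library (-0.62) or the second BSA library (-0.50). Racgap1, the partner of Kif23 in centralspindlin, had 7.77 and 9.92 CPM in the AGEs libraries and 11.7 and 9.34 CPM in the BSA libraries (-0.24, SE 0.22), and its groups overlapped. Ect2, the exchange factor that activates RhoA at the cleavage furrow, had 3.49 and 3.50 CPM in the AGEs libraries and 4.03 and 5.03 CPM in the BSA libraries (-0.38, SE 0.30). Anln, the scaffold anillin of the contractile ring, had 7.69 and 6.67 CPM in the AGEs libraries and 9.40 and 8.16 CPM in the BSA libraries (-0.29, SE 0.22). Kif20a, the motor that carries passenger proteins to the midzone, had 3.10 and 1.40 CPM in the AGEs libraries and 4.48 and 2.63 CPM in the BSA libraries (-0.65, SE 0.43). Prc1, the crosslinker of midzone microtubules, ran the other way at 5.20 and 3.95 CPM in the AGEs libraries and 2.82 and 3.58 CPM in the BSA libraries (0.51, SE 0.31, edgeR adjusted p = 0.902), without overlap.

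**Figure D3:**
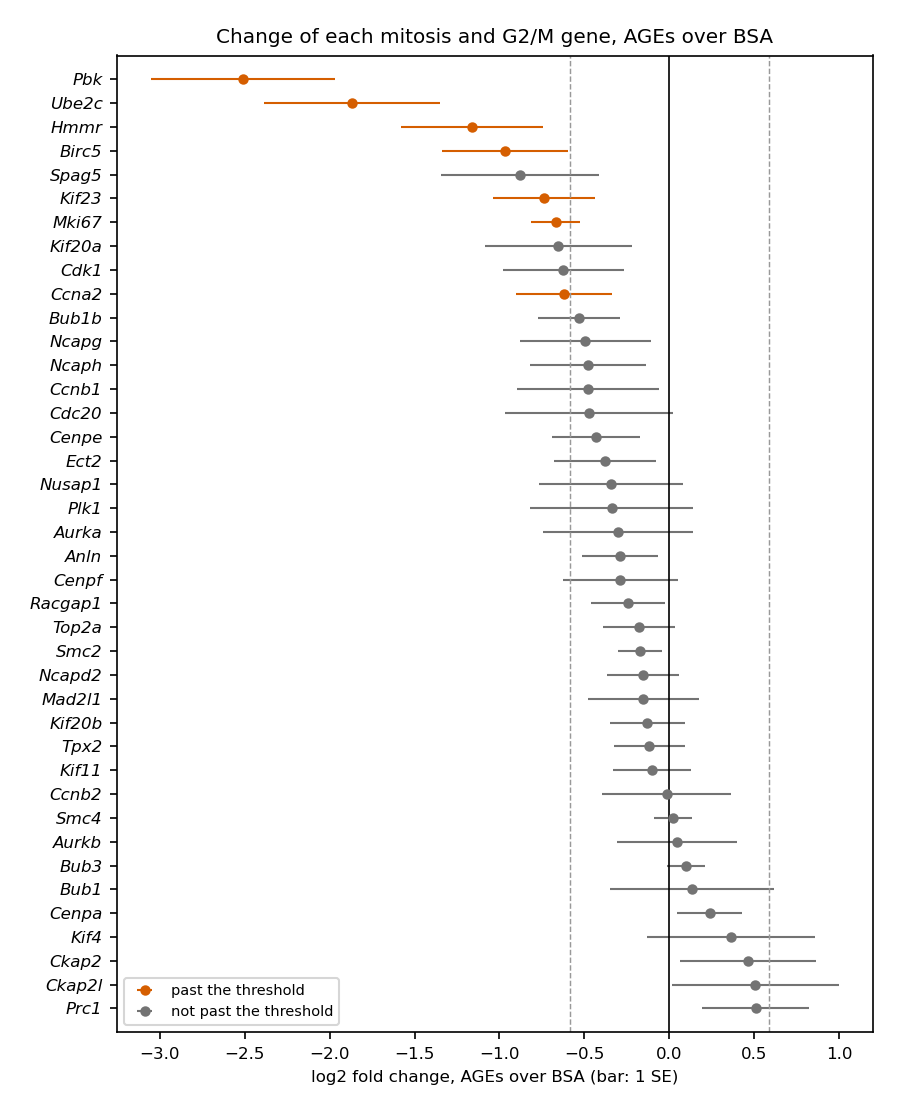
Log2 fold change (x axis, AGEs over BSA, bars 1 SE of edgeR's fit) of the 40 genes, ordered by value, with the 7 past the threshold in orange and dashed lines at a 1.5-fold change. The values run between -2.51 for Pbk and 0.51 for Prc1, with 31 of 40 below 0.

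Weakly counted genes carried larger values and larger errors. Of 16 genes with a mean of at least 100 counts, 2 were downregulated (Mki67 and Ccna2), their median log2 fold change was -0.16 and their median SE 0.22. Of 24 genes with fewer counts, 5 were downregulated, with a median of -0.42 and a median SE of 0.42. Duplicates lay more than 1.5-fold apart for 8 genes in the AGEs group and 12 in the BSA group. Among all genes tested this was so for 12.8% in the AGEs group and 15.6% in the BSA group.

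**Figure D4:**
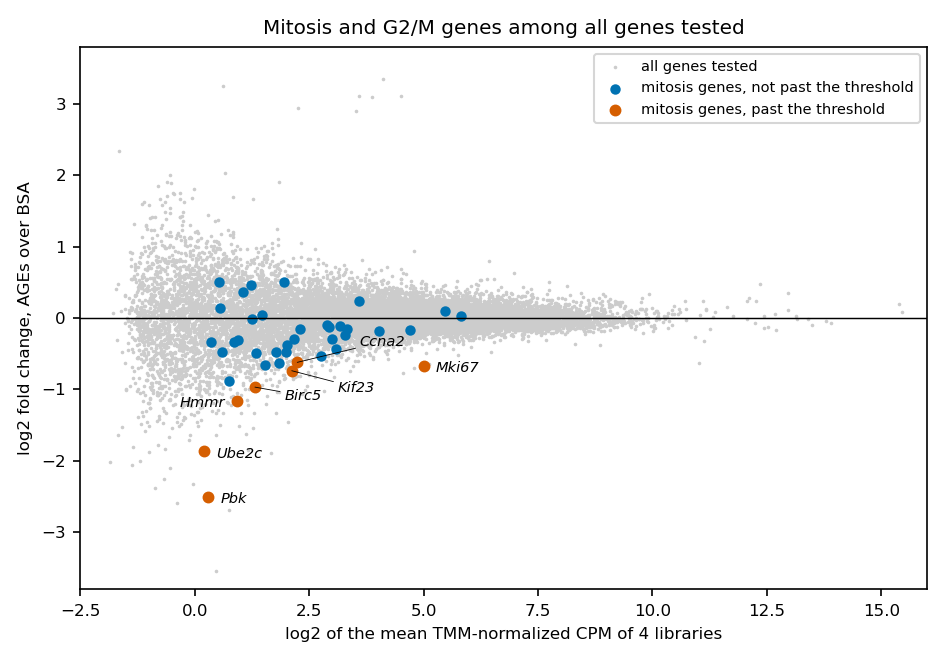
Log2 fold change (y axis, AGEs over BSA) against the log2 of the mean TMM-normalized CPM of the 4 libraries (x axis) for the 14181 genes tested (grey), with the 40 mitosis and G2/M genes in blue and the 7 past the threshold in orange. Mki67, at -0.67, has the highest level of the 7, and Pbk (-2.51) and Ube2c (-1.87) have the lowest.

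On the per-length scale of the authors' TPM, the 40 genes covered a wide range. Bub3 had the highest mean over the 4 libraries, 31.7 TPM, followed by Smc4 with 15.2, Cenpa with 12 and Smc2 with 6.96 TPM. Mki67 (4.79 TPM), Racgap1 (4.69 TPM) and Top2a (4.56 TPM) came next. The ranges of Bub3, Smc4 and Cenpa over the 4 libraries did not overlap each other or any lower gene, whereas that of Smc2 overlapped the range of Mki67, and those of Mki67, Racgap1, Top2a and the next gene, Mad2l1 (3.82 TPM), overlapped each other. Bub1 had the lowest mean, 0.486 TPM. In TPM, Mki67 had 3.15 and 4.02 in the AGEs libraries and 6.89 and 5.10 in the BSA libraries. The 40 genes lie on 17 chromosomes, and the GC content of their longest transcripts ran between 34.8% and 56.0% with a median of 46.2%.

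Several calls changed when a library was left out, as given above by gene. In these fits the lone library is assumed to vary like the other group, so genes passing are not counted. Without AGEs replicate 1 the median log2 fold change of the 40 genes was -0.265, against -0.0077 for all genes tested. Without AGEs replicate 2 it was -0.205, against -0.0041. Without BSA replicate 1 it was -0.234, against 0.0027, and without BSA replicate 2 it was -0.17, against 0.0069.

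**Figure D5:**
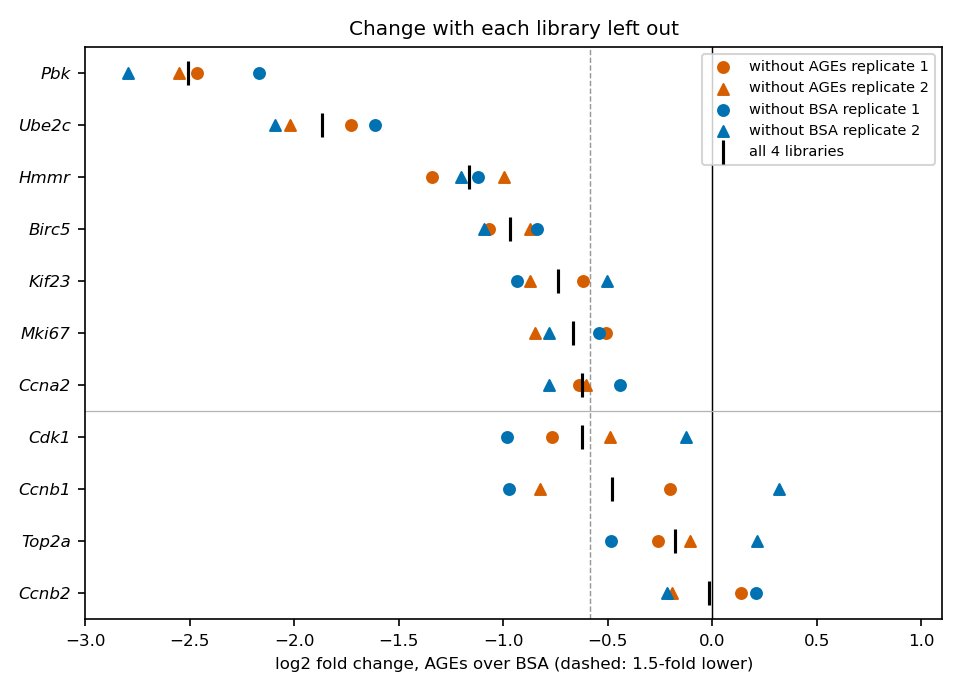
Log2 fold change (x axis, AGEs over BSA) of the 7 downregulated genes and of Cdk1, Ccnb1, Top2a and Ccnb2 with all 4 libraries (black bar) and with each library left out (orange, an AGEs library, blue, a BSA library). Pbk and Ube2c stay below -1.61 in every fit, while Ccnb1 lies at -0.97 without BSA replicate 1 and 0.32 without BSA replicate 2.

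Further genes of the pathway also had mostly negative values. Of 70 further mitotic genes, 66 were listed and 65 tested. A negative log2 fold change was found for 52 of these, against 50.6% of all genes tested, and the median was -0.21, against -0.0026. Past the threshold, 4 were downregulated and 0 upregulated, against 0.945% and 0.825% of all genes tested. The 4 were Cdca5, the cohesin protector sororin (-1.50, SE 0.48), Nuf2, a microtubule-binding kinetochore subunit (-1.21, SE 0.50), Depdc1a (-1.32, SE 0.57) and Pimreg (-1.77, SE 0.64). Cdca5 had 0.611 and 0.906 CPM in the AGEs libraries and 2.16 and 2.18 CPM in the BSA libraries. The best counted of the list, the microtubule polymerase Ckap5 (-0.09) and the condensin II subunits Ncaph2 (0.08) and Ncapg2 (-0.31), did not pass. Of 16 APC/C subunits and partners, 0 passed in either direction, 8 were negative and the median was -0.0075. Of 10 cohesin genes 0 passed, 9 were negative and the median was -0.12.

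Of 15 regulators of mitotic transcription, 1 was downregulated and 0 were upregulated, against 0.945% and 0.825% of all genes tested. This was E2f5, a repressive E2F (-0.60, SE 0.22), with 5.94 and 6.71 CPM in the AGEs libraries and 10.3 and 8.88 CPM in the BSA libraries. The median was -0.0085. Foxm1, which encodes FOXM1, had 3.67 and 3.17 CPM in the AGEs libraries and 2.27 and 3.17 CPM in the BSA libraries (0.32, SE 0.35). Mybl2, which encodes B-MYB, had 1.92 and 1.28 CPM in the AGEs libraries and 1.22 and 2.86 CPM in the BSA libraries (-0.36, SE 0.48). Nfya, the regulatory subunit of NF-Y, stood at 114.0 and 112.9 CPM in the AGEs libraries and 118.5 and 109.8 CPM in the BSA libraries.

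The preceding phase of the cycle was compared with a list of G1/S and DNA replication genes. Of 42 genes tested, 1 was downregulated, Uhrf1, which helps to maintain DNA methylation at replication forks (-0.81, SE 0.29), and 0 were upregulated. It had 3.89 and 3.29 CPM in the AGEs libraries and 5.14 and 7.43 CPM in the BSA libraries. In this list 26 genes had a negative log2 fold change, against 50.6% of all genes tested, and the median was -0.07, against -0.0026. Over all genes tested, 0.945% were downregulated and 0.825% upregulated. The sliding clamp Pcna had 101.0 and 85.0 CPM in the AGEs libraries and 97.9 and 84.5 CPM in the BSA libraries (0.03, SE 0.11), and the G1 kinases Cdk6 (0.09, SE 0.09) and Cdk4 (0.03, SE 0.09) did not pass the threshold. Of 15 cell cycle brakes, 1 was downregulated, Cdkn1c, the CDK inhibitor p57 (-0.83, SE 0.34), with 2.97 and 3.66 CPM in the AGEs libraries and 3.92 and 7.80 CPM in the BSA libraries. The difference between the lists was not tested.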

How the data were processed

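Total RNA from 4 libraries of mouse peritoneal macrophages (2 AGEs, 2 BSA) was depleted of ribosomal RNA and sequenced from stranded libraries. The authors mapped reads to mm10 (GRCm38) with HISAT2 and deposited read counts per gene, which were tested here, and TPM calculated by StringTie, which was used for levels between genes and for alternative fits. How the counts were made and whether strand was used are not given in the sources used here. Every listed gene has at least 1 count in each library. The deposited comparison columns hold the authors' DESeq2 fold changes and p-values, and they, the FPKM and the log2 values were not used.

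Counts were fitted with edgeR 4.0.16 in R 4.3.3 (TMM, filterByExpr, robust glmQLFit, glmQLFTest, no block), on 14181 genes with Benjamini-Hochberg adjustment over all of them. The SE was the absolute log2 fold change over the square root of F. The biological coefficient of variation was 12.9%. The fit was tested on simulated counts. Alternatives were DESeq2 1.42.0, limma 3.58.1 (voom, and log2 of TPM plus 1 or 0.1), RLE, upper quartile and library size scaling, 2 filters, a GC correction (loess, span 0.5), a fold limit of 2, the adjusted p, the replicate number as a block and each library left out. Every one of the 40 genes is named. Those past the threshold, Mki67, Top2a, Cdk1 and the cyclins are given by library, and of the other lists those past the threshold and up to 3 with the highest counts. Foxm1 and Mybl2 were added after their values were seen. The 40 genes and all lists were chosen with earlier results of these data known. Entrez IDs of 15534 genes matched RefSeq (GRCm38.p6), the source of coordinates and promoter sequences. With 2 libraries per group, p-values measure the spread between these libraries, which may be technical.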

Additional observations from a re-analysis of the deposited data

How the results depend on the processing

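The 7 downregulated genes became 3 of 29 tested with at least 50 counts in 2 libraries and 3 with a fold limit of 2. They became 0 with the adjusted p and 4 on log2(TPM + 1). The remaining alternatives with all 4 libraries gave 6 or 7, and 0 genes were upregulated in any. With a library left out, the lone library is assumed to vary like the other group, so genes passing are not counted. The count filter left Pbk, Ube2c and Hmmr untested. The median over the 40 genes (-0.30) was -0.23 on log2(TPM + 1) and -0.35 on log2(TPM + 0.1), where all genes shifted to medians of -0.07 and -0.09, and lay between -0.27 and -0.17 with a library left out.

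The other mitotic genes past the threshold (4) became 0 with at least 50 counts, 0 with the adjusted p, 2 on log2(TPM + 1) and 1 with DESeq2, and were 2 to 5 with a library left out. The G1/S genes (1) became 0 with a fold limit of 2, 0 with the adjusted p and 3 on log2(TPM + 0.1), and were 1 to 2 with a library left out. The cause of these shifts was not tested beyond the fewer genes or libraries used.

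With the replicate number as a block (replicate block) 7 genes passed, with a median of -0.31. The numbers do not pair the samples: there are only 2 pairs and the deviations correlated at 0.0284. The block with GC correction gave 6 genes, as did GC correction alone. Over all genes tested, 134 were downregulated and 117 upregulated, against 142 and 59 on log2(TPM + 1) and 266 and 131 on log2(TPM + 0.1). Genes under 100 counts carry a median SE of 0.42, which limits the small differences above.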

Other observations

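Growth factor receptors and factors tied to macrophage self-renewal mostly had positive values, none of them past the threshold. This list too was chosen with earlier results of these data known. Of 12 listed genes, 0 passed, and 11 had a positive log2 fold change, against 7011 of the 14181 genes tested. The median was 0.17, against -0.0026 for all genes tested. Csf2ra, the alpha chain of the GM-CSF receptor, had 312.0 and 336.1 CPM in the AGEs libraries and 204.8 and 268.8 CPM in the BSA libraries, with a log2 fold change of 0.45 (SE 0.12), which did not reach 1.5-fold. Csf1r, the M-CSF receptor, had 1035 and 1202 CPM in the AGEs libraries and 1121 and 963.7 CPM in the BSA libraries (0.10, SE 0.10). Csf2rb, the signalling chain shared by several cytokine receptors, had a value of 0.0045 (SE 0.10). The values of this list and those of the 40 genes come from the same libraries, and their relation was not tested.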
